A study of Mus musculus with 6 samples.

Results

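The 24 genes described here were all but silent in vehicle-treated NMuMG cells, were switched on by TGF-β, and were not switched back by the added compound 2APB. They were chosen by their CPM (counts per 1e6, a gene's share of all counts of its library). A gene was kept if its CPM was below 0.1 in both DMSO libraries and at least 1 in both TGF-β libraries, if neither TGF-β library was over 1.5 times the other, and if the mean CPM with TGF-β+2APB was over 1/1.5 of the mean with TGF-β. Of the 18512 deposited entries, 3753 were silent in DMSO by this limit, 33 of these reached 1 CPM in both TGF-β libraries, 28 also met the limit on the replicates, and 24 met all limits. Every contrast between the 3 groups was used in choosing them, so the values of the 24 genes are given as a description.

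NMuMG is a mouse mammary gland epithelial cell line that is widely used to study the epithelial to mesenchymal transition (EMT), and it was treated here with the vehicle DMSO, with 5 ng/ml of TGF-β alone, or with the same dose of TGF-β together with 50 uM of 2APB. 2APB (2-aminoethoxydiphenyl borate) modulates store-operated calcium entry, the inflow of calcium that follows emptying of the endoplasmic reticulum store. RNA of 2 replicates of each group was sequenced, in 6 libraries. The study describes a treatment of 24 h for the sequenced cells, and elsewhere places 2APB for 24 h before TGF-β, so the order of the additions is uncertain. All cells were of 1 line, no group received 2APB without TGF-β, and the effect of 2APB by itself cannot be told apart from its effect in the presence of TGF-β.

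TGF-β binds a pair of receptor kinases that phosphorylate SMAD2 and SMAD3, which enter the nucleus with SMAD4 and act on DNA together with other transcription factors such as AP-1. In mammary epithelial cells this lowers E-cadherin and other junction genes and raises genes of the matrix and the cytoskeleton. Genes that start from no detectable RNA are a separate matter from those that are raised from a working level, since a fold change against zero has no fixed size. For such genes the level that is reached, and how well replicates repeat it, carry the information.

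Total counts ran from 71840570 to 79473182 per library, so that 1 CPM stood for 71.8 to 79.5 counts and 0.1 CPM for 7.18 to 7.95 counts. Every deposited value was even, and the lowest value above 0 was 2, so counting intervals, which cover counting error only, are too narrow if each read was entered 2 times. TGF-β+2APB replicate 2 stood apart by leukocyte transcripts, as Itgam, an integrin of myeloid cells, had 1018 counts there against 12 in replicate 1, and 230, 178, 50 and 14 in the DMSO and TGF-β libraries. Smr3a, a salivary gland gene, had 0 counts in both DMSO libraries and in TGF-β replicate 1, against 578 in TGF-β replicate 2, and 1640 and 2992 with TGF-β+2APB. Both genes were picked after their values were seen. Of 10 markers of simple epithelium, Krt8 and Krt18 were high (3254 and 2236 CPM in DMSO, mean of 2 libraries). Esrp1 and Cldn7 were below 0.1 CPM already in DMSO (means of 0.013 and 0.053 CPM) and also in the TGF-β libraries. Epcam was at 1.95 CPM in DMSO, and Cldn3 had no entry in the table used here. Cdh1, which encodes E-cadherin, fell from 1215 to 692 CPM with TGF-β.

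RefSeq promoter windows, 250 bases before to 50 bases after a start site on GRCm38.p6, were found for 18 of the 24 genes, in 21 windows, as Lef1 has 4. No window was at hand for Lce1f, Tmem119, Elmod1, Ucn2, Slco5a1 and 1810041L15Rik. The windows of 5 genes are shown, the neighbouring copies Lce1g and Lce1h because they differ in their motifs, Cldn4 and Srpx2 for their AP-1 letters, and Angpt4 for its TATA box. Capitals mark matches, on either strand, to the letters of AP-1 (TGAGTCA), SMAD (CAGAC), a palindromic SMAD pair (GTCTAGAC), TEAD (GGAATG), the E-box bound by SNAI1 and ZEB factors (CAGGTG) and the TATA box (TATAAA). Each is printed 5′ to 3′ on the strand of its gene.
Lce1g, GRCm38.p6 chr3:92752289-92752588, minus strand: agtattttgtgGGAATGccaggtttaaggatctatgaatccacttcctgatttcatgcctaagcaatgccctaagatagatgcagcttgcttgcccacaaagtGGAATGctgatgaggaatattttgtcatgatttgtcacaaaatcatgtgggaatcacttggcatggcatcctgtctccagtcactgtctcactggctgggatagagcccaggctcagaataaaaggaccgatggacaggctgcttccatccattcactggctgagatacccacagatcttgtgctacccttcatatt
Lce1h, GRCm38.p6 chr3:92765016-92765315, minus strand: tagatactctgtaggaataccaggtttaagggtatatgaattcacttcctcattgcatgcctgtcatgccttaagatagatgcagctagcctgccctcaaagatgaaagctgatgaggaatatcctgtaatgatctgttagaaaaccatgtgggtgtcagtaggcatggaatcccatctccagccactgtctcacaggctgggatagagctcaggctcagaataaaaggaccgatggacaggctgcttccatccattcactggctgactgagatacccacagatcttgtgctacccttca
Cldn4, GRCm38.p6 chr5:134946885-134947184, minus strand: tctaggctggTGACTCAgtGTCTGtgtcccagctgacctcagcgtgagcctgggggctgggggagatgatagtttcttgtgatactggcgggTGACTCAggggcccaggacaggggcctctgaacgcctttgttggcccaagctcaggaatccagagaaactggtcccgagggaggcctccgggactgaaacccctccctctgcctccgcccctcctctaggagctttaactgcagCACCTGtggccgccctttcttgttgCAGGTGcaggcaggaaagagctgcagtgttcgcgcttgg
Srpx2, GRCm38.p6 chrX:133908175-133908474, plus strand: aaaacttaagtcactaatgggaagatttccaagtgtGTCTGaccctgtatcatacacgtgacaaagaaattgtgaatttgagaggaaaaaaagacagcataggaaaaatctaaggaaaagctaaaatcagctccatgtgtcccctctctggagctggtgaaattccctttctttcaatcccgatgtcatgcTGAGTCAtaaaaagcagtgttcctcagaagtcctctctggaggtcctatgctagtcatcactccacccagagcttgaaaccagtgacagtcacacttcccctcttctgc
Angpt4, GRCm38.p6 chr2:151910957-151911256, plus strand: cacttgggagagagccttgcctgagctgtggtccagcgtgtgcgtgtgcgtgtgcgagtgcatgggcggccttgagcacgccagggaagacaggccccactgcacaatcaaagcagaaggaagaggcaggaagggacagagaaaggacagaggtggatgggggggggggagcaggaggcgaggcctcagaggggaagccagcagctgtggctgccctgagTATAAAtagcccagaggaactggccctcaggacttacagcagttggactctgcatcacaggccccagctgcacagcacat

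The Cldn4 window held the AP-1 letters at 240 and 158 bases before the start, and 2 copies of the E-box letters. The Srpx2 window held AP-1 at 59 bases before the start, and the Fcrlb window held it 32 bases after the start. These were the 3 of 21 windows (14.3%) with AP-1, against 5.2% of all 32851 RefSeq windows. The TATA letters lay 30 bases before the start in Angpt4 and Adamtsl2 and 31 bases before it in Tarm1, and they were found in 4 of 21 windows (19%) against 13.6% of all. The SMAD letters, which are short and common, were in 14 of 21 windows (66.7%) against 49.6% of all, TEAD in 5 (23.8%) against 14.7%, and the E-box in 4 (19%) against 20.2%. The SMAD pair was in 0 of 21 against 0.213% of all. The CAGAC letters lie inside neither AP-1 nor TEAD, and the 4 windows of Lef1 overlap in part, so the 21 windows are not independent. Lce1g and Lce1h were identical at 259 of 306 aligned columns (84.6%), and yet the TEAD letters stood 2 times in Lce1g (239 and 147 bases before the start) and not in Lce1h. The median GC content of the windows was 61% against 52.7% for all, and the median ratio of observed to expected CpG was 0.35 against 0.38. A match is a description of the letters and not a site of binding.

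All 24 genes are protein-coding in the GENCODE annotation of GRCm38, and they lie on 10 chromosomes, with 6 of them on chromosome 3. Their merged exons span 706 to 14696 bases (median 3086, against 3798 over all matched genes), and 2 of them, Cldn4 and Ucn2, have a single exon. In DMSO 11 of the 24 had 0 counts in both libraries, and no gene had over 6 counts in a library. With TGF-β their mean level ran from 1.2 to 38.7 CPM, with a median of 3.41 CPM. Per kb of merged exon, which allows levels of different genes to be compared, the TGF-β level ran from 0.097 CPM per kb in Slco5a1 to 41.8 CPM per kb in Lce1g, with a median of 1.04 CPM per kb. The next highest by this scale were Lce1f (8.66), Lce1h (6.78), Cldn4 (5.25), Gpr123 (4.08), Tmem119 (3.76), Prss46 (2.76) and Rarres1 (1.8 CPM per kb). In bulk RNA, more cells with a transcript and more transcript per cell cannot be told apart.

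**Figure D1:**
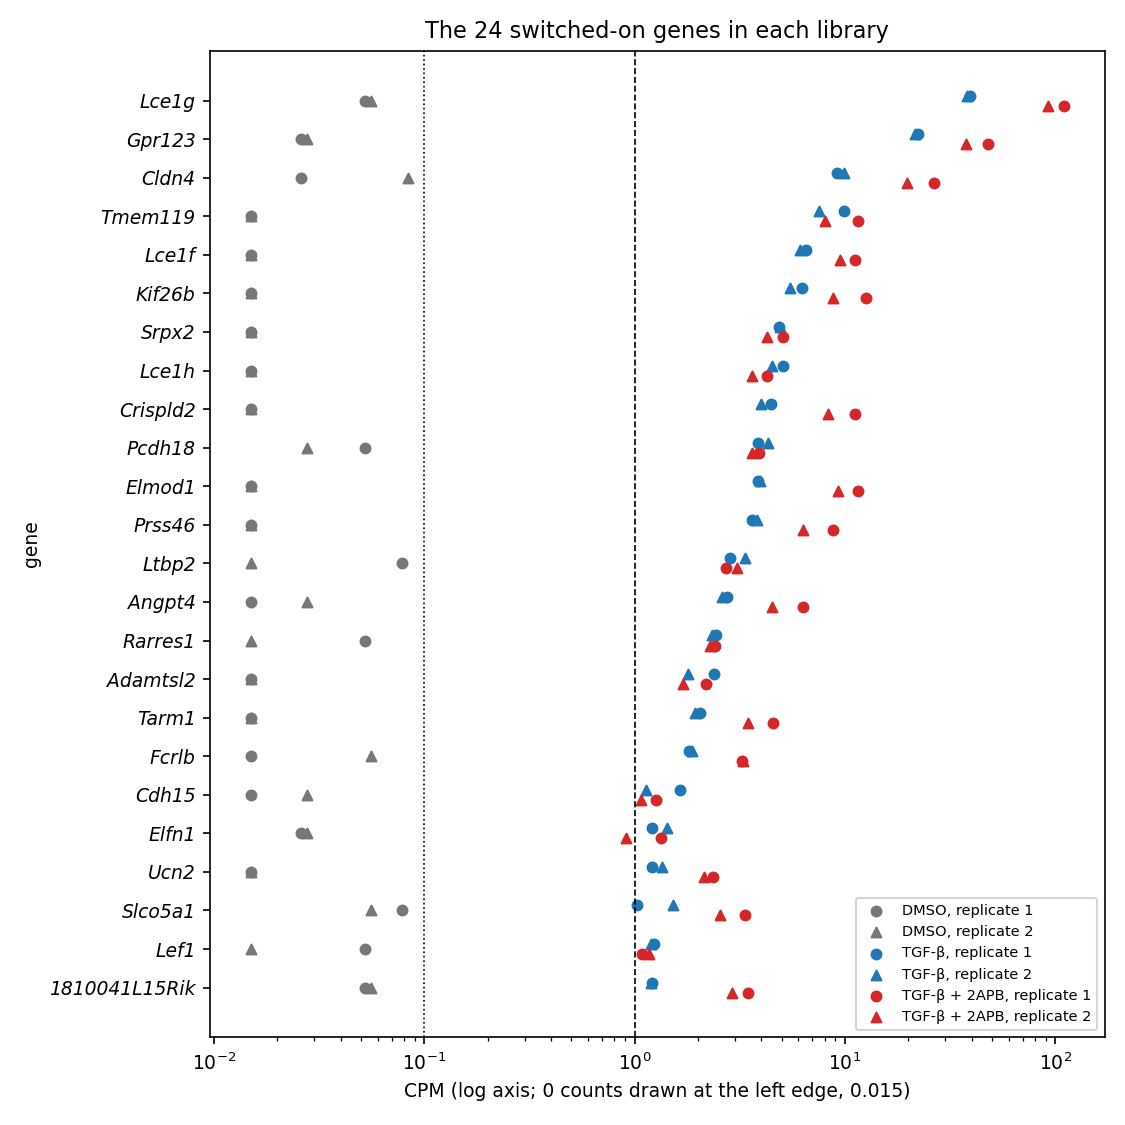
CPM of each of the 24 switched-on genes (rows, ordered by the mean TGF-β level) in each of the 6 libraries, on a log axis; circles are replicate 1, triangles replicate 2, grey DMSO, blue TGF-β and red TGF-β+2APB, and the lines stand at the limits of 0.1 and 1 CPM. Counts of 0 are drawn at 0.015 CPM. The 2 TGF-β libraries of a gene lie within 1.47 times of each other, and Lce1g is the highest gene with either treatment.

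Per kb of exon, the late cornified envelope genes reached the highest levels with TGF-β. These genes encode small proteins that are crosslinked under the membrane of terminally differentiating keratinocytes of the skin. Lce1g (chr3:92750148-92752338) had 4 counts in each DMSO library, 39.2 and 38.2 CPM with TGF-β, and 110 and 91.8 CPM with TGF-β+2APB. Both TGF-β+2APB libraries lay above both TGF-β libraries, and the TGF-β level was 717 times the DMSO level (95% exact interval 364 to 1665, counting error only). Lce1f (chr3:92718685-92720350) had 0 counts in DMSO, 6.52 and 6.09 CPM with TGF-β, and 11.1 and 9.49 CPM with TGF-β+2APB. It was at least 156-fold higher with TGF-β than the floor of 3 counts in each DMSO library, and here too the groups did not overlap. If each read was entered 2 times, the floor is 6 counts and the bound 78-fold. Lce1h (chr3:92763215-92765065) had 0 counts in DMSO, 5.08 and 4.49 CPM with TGF-β, and 4.28 and 3.63 CPM with TGF-β+2APB. It went the other way from its neighbours, with both TGF-β+2APB libraries below both TGF-β libraries, and its ratio of 0.826 was the lowest of the 24. The transcripts of Lce1f and Lce1h are identical at 78.5% of aligned columns, those of Lce1g and Lce1h at 67.9% and those of Lce1f and Lce1g at 67.5%. Of all stretches of 50 bases, the read length, 15% in Lce1f, 18.4% in Lce1g and 19.9% in Lce1h also occur in another annotated transcript, mostly of Lce1 genes, so the split of reads between these genes is uncertain to that extent.

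The secreted products form the next group. Ltbp2, a matrix protein of microfibrils from the family of latent TGF-β binding proteins, had 6 and 0 counts in the DMSO libraries, 2.84 and 3.36 CPM with TGF-β and 2.72 and 3.07 CPM with TGF-β+2APB. The treated groups overlapped. An annotated gene on the opposite strand, D030025P21Rik, shares 764 bases of exon with Ltbp2 and had at most 14 counts in a library. As the strand setting of the counting is not given in the sources used here, reads of the shared stretch cannot be told apart. Adamtsl2, an ADAMTS-like glycoprotein that also binds microfibrils, went from 0 counts to 2.39 and 1.79 CPM with TGF-β and stood at 2.19 and 1.7 CPM with TGF-β+2APB. Srpx2, a secreted sushi repeat protein, went from 0 counts to 4.83 and 4.91 CPM with TGF-β and stood at 5.08 and 4.26 CPM with TGF-β+2APB. In none of these 3 matrix or secreted proteins were the TGF-β+2APB libraries set apart from the TGF-β libraries. Crispld2, a secreted protein with a cysteine-rich CAP domain, differed from them: it had 0 counts in DMSO, 4.45 and 4 CPM with TGF-β, and 11.2 and 8.33 CPM with TGF-β+2APB. Angpt4, an angiopoietin that binds the endothelial receptor TIE2, had 0 and 2 counts in the DMSO libraries, 2.74 and 2.59 CPM with TGF-β and 6.32 and 4.49 CPM with TGF-β+2APB. Its TGF-β level was 192 times that of DMSO, but 2 counts in all of DMSO leave a 95% exact interval of 54.6 to 1644. The receptor gene itself, Tek, had 2 counts in 1 TGF-β library and 0 in the other 5. Ucn2, a peptide ligand of the corticotropin-releasing hormone receptor CRHR2, went from 0 counts to 1.21 and 1.35 CPM with TGF-β and to 2.37 and 2.13 CPM with TGF-β+2APB.

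The adhesion and junction proteins were mixed. Cldn4, a claudin of tight junctions, is a gene of epithelial barriers and was nevertheless among those switched on. It had 2 and 6 counts in the DMSO libraries, 9.21 and 9.87 CPM with TGF-β, and 26.5 and 19.7 CPM with TGF-β+2APB (chr5:134945119-134946934). Its TGF-β level was 174 times the DMSO level (95% exact interval 89.5 to 411), and the 2 treated groups did not overlap. Pcdh18, a protocadherin, had 4 and 2 counts in the DMSO libraries, 3.85 and 4.3 CPM with TGF-β and 3.9 and 3.6 CPM with TGF-β+2APB. Cdh15, the M-cadherin of muscle precursors, had 0 and 2 counts in the DMSO libraries, 1.64 and 1.13 CPM with TGF-β and 1.26 and 1.07 CPM with TGF-β+2APB. Elfn1, a leucine-rich repeat protein of synapses, had 2 counts in each DMSO library, 1.21 and 1.43 CPM with TGF-β and 1.33 and 0.914 CPM with TGF-β+2APB. For Pcdh18, Cdh15 and Elfn1 the treated groups overlapped, and Elfn1 was the single member with a TGF-β+2APB library under 1 CPM.

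Of the membrane receptors, transporters and relatives of such proteins, Gpr123 was the highest. It encodes an orphan adhesion receptor coupled to G proteins, annotated as Adgra1 (chr7:139834174-139878088), and it had 2 counts in each DMSO library, 22.3 and 21.6 CPM with TGF-β, and 47.7 and 37.6 CPM with TGF-β+2APB. Tmem119, a membrane protein of bone-forming cells that is also used as a marker of microglia (chr5:113793729-113800516), had 0 counts in DMSO, 9.92 and 7.5 CPM with TGF-β, and 11.5 and 8.02 CPM with TGF-β+2APB. It was at least 215-fold higher with TGF-β than the floor of 3 counts (108-fold with a floor of 6 counts), and its treated groups overlapped. Tarm1, an activating receptor of myeloid cells, went from 0 counts to 2.04 and 1.93 CPM with TGF-β and 4.56 and 3.45 CPM with TGF-β+2APB. Fcrlb, a relative of the Fc receptors known from B cells, had 0 and 4 counts in the DMSO libraries, 1.81 and 1.87 CPM with TGF-β and 3.25 and 3.27 CPM with TGF-β+2APB. Slco5a1, of the family of organic anion transporters, had 6 and 4 counts in the DMSO libraries, 1.03 and 1.52 CPM with TGF-β and 3.35 and 2.54 CPM with TGF-β+2APB. 1810041L15Rik, annotated as Shisal1 and related to the Shisa membrane proteins, had 4 counts in each DMSO library, 1.21 and 1.19 CPM with TGF-β and 3.45 and 2.89 CPM with TGF-β+2APB. Rarres1, a membrane protein first found as induced by a retinoid, had 4 and 0 counts in the DMSO libraries, 2.44 and 2.32 CPM with TGF-β and 2.42 and 2.28 CPM with TGF-β+2APB. The treated groups of Rarres1 overlapped, with a ratio of 0.988.

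The remaining 4 genes encode intracellular proteins and a protease. Elmod1, a GTPase-activating protein of the ARF family (chr9:53911457-53975301), had 0 counts in DMSO, 3.85 and 3.94 CPM with TGF-β, and 11.5 and 9.27 CPM with TGF-β+2APB. Its ratio of 2.66 was the highest of the 24. Kif26b, a kinesin known from kidney development, went from 0 counts to 6.22 and 5.49 CPM with TGF-β and 12.6 and 8.78 CPM with TGF-β+2APB. Prss46, a serine protease from a cluster of testis proteases, went from 0 counts to 3.62 and 3.8 CPM with TGF-β and to 8.76 and 6.32 CPM with TGF-β+2APB. Lef1, a DNA-binding partner of β-catenin in Wnt signalling, had 4 and 0 counts in the DMSO libraries, 1.23 and 1.19 CPM with TGF-β and 1.08 and 1.17 CPM with TGF-β+2APB. Lef1 is, beside Lce1h, the other gene whose TGF-β+2APB libraries both lay below both TGF-β libraries in CPM. Its counts overlapped, with 98 and 86 against 86 and 92, so this order rests on the scaling by column sums. Kif26b and Lef1 each overlap an annotated gene on the opposite strand, by 909 and 1208 bases of exon.

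With 2APB the 24 genes fell into 2 ranges with an empty stretch between them. In 14 genes the mean TGF-β+2APB CPM was 1.63 to 2.66 times the mean TGF-β CPM, and in the other 10 it was 0.826 to 1.12 times. The 5 highest ratios were those of Elmod1 (2.66), 1810041L15Rik (2.65), Lce1g (2.62), Cldn4 (2.42) and Crispld2 (2.31), and the 5 lowest those of Lce1h (0.826), Cdh15 (0.84), Elfn1 (0.851), Pcdh18 (0.921) and Lef1 (0.93). On the log2 scale Elmod1 stood at 1.41 ± 0.15 and Lce1h at -0.28 ± 0.15 (log2 of the ratio of mean CPM, with a standard error from the log2 CPM of the replicates, n = 2 a group). In each of the 14 genes both TGF-β+2APB libraries were above both TGF-β libraries in CPM, in 2 genes both were below, and in 8 the groups overlapped. For Lef1, among the 2 genes below, this order rests on the scaling, as its counts overlapped. Over the 13353 genes with enough counts to be tested, 23.7% had both TGF-β+2APB libraries above and 35.3% had both below. As the rule itself turned away genes with a low ratio, nothing is read from these shares. The 14 genes had a median TGF-β level of 3.8 CPM and the 10 genes one of 2.74 CPM, and 7 and 4 of them had 0 counts in both DMSO libraries.

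**Figure D2:**
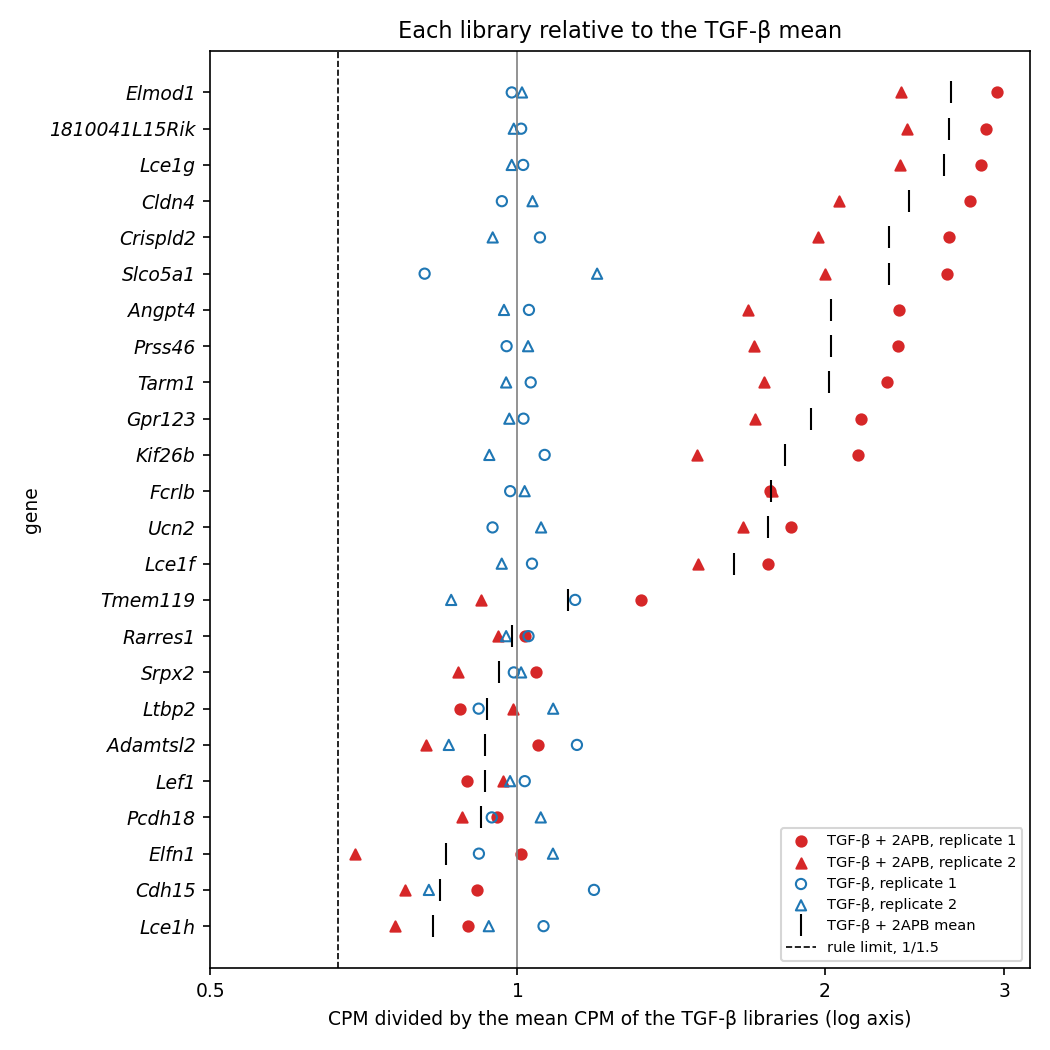
CPM of each treated library divided by the mean CPM of the 2 TGF-β libraries of the same gene (log axis), for the 24 genes in order of their ratio; red filled symbols are TGF-β+2APB, blue open symbols TGF-β, circles replicate 1, triangles replicate 2, black strokes the TGF-β+2APB mean, and the dashed line the limit of the rule. From Lce1f (1.63) upwards all red symbols lie right of the blue ones, and from Tmem119 (1.12) downwards they mix or lie left.

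By edgeR's quasi-likelihood test, 9 of the 24 genes were called higher with TGF-β+2APB than with TGF-β and 0 lower (FDR of 0.05 or less over all genes tested), where 6.58% of all genes tested were called higher and 10.9% lower. At an unadjusted p under 0.05 the counts were 13 higher and 0 lower, and DESeq2 gave 13 and 0. The rule used this contrast, and the counts are given without further reading. The count of 9 was 5 without DMSO replicate 1 or without DMSO replicate 2, and to 3 without TGF-β+2APB replicate 1. The genes called were Elmod1, 1810041L15Rik, Lce1g, Cldn4, Crispld2, Slco5a1, Prss46, Gpr123 and Lce1f. Within the TGF-β+2APB group, replicate 1 was above replicate 2 in 21 of 24 genes, by a median of 1.22 times and at most 1.46 times. Among the 5658 genes with at least 1 CPM in both TGF-β libraries and no more than the highest value of the 24, replicate 1 was the higher in 42.9%, and the median gap was 1.08 times. Within the TGF-β group replicate 1 was the higher in 14 of 24 genes, with a median gap of 1.07 times, against 52.6% and 1.14 times among the 5658 genes. The rule capped this gap at 1.5 times in the 24 genes and not in the 5658 genes. The smaller TGF-β gap is thus in part set by the choice, and nothing is read from it. The part of the composition of TGF-β+2APB replicate 2 in this was not tested.

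The limits of the rule cut through a range of genes. Cldn4 had the highest DMSO level inside it (0.0835 CPM), and Greb1 was just outside (0.104 CPM). Slco5a1 was nearest to the TGF-β minimum from above (1.03 CPM) and Phactr2 from below (0.906 CPM). Slco5a1 was also the nearest to the limit on the replicates (1.47 times). Ntsr1, the receptor for the peptide neurotensin and one of 3 genes put forward as markers of the group, was just outside with 10.4 and 6.89 CPM with TGF-β, a gap of 1.51 times. It had 0 counts in both DMSO libraries and 25.4 and 19.2 CPM with TGF-β+2APB, a ratio of 2.57, and it is not a member. The other 2 markers, Tmem119 and Lce1f, are members. Has2, a hyaluronan synthase, and Lrrc4c, a synaptic adhesion protein, also missed the limit on the replicates (1.58 and 1.57 times), with ratios of 2.4 and 1.11.

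Switched-on genes that stood lower with 2APB were few, and the ratios left a gap between them and the 24 genes. Megf6, an EGF repeat protein, had the nearest ratio outside the rule (0.523), and Lce1h the nearest inside (0.826). Rxfp3, the receptor of the peptide relaxin-3, stood at 6.01 and 5.38 CPM with TGF-β and at 2.04 and 1.37 CPM with TGF-β+2APB, and Piezo2, a channel opened by touch, at 2.39 and 3.06 CPM against 0.831 and 0.762 CPM. Sprr2k, another gene of the cornified envelope, had the lowest ratio, 0.227, with 1.89 and 1.9 CPM against 0.403 and 0.457 CPM. Kcnq3, a potassium channel, and Il13ra2, a receptor of interleukin-13, failed both the limit on the replicates and that on the ratio (0.509 and 0.295). In all, 80 of the 3753 silent genes (2.13%) reached 1 CPM in both TGF-β+2APB libraries, against 33 (0.879%) with TGF-β, and 29 did so in both groups. In the reverse direction, 39 genes had at least 1 CPM in both DMSO libraries and less than 0.1 CPM in both TGF-β libraries.

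**Figure D3:**
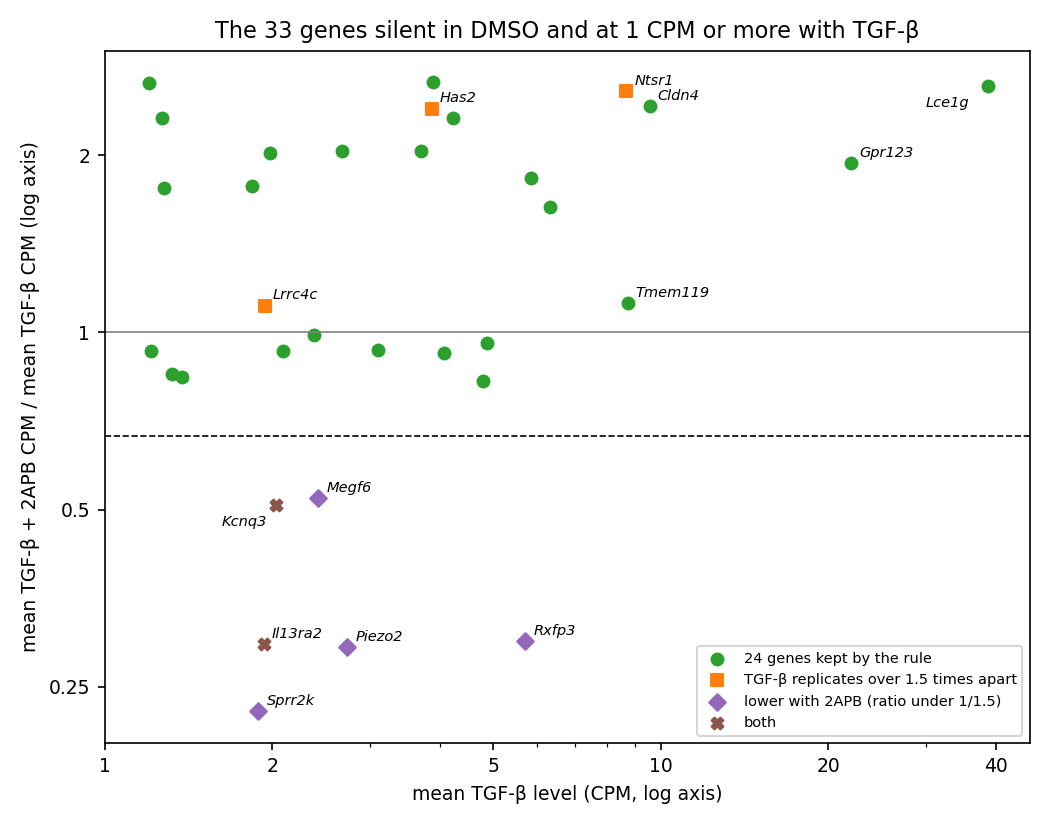
Mean TGF-β level (CPM, log axis) against the ratio of mean TGF-β+2APB CPM to mean TGF-β CPM (log axis) for the 33 genes that were silent in DMSO and reached 1 CPM in both TGF-β libraries; green circles are the 24 genes kept by the rule, orange squares the 3 with replicates over 1.5 times apart, purple diamonds the 4 under the ratio limit (dashed line) and brown crosses the 2 that failed both. No gene lies between ratios of 0.523 and 0.826, or between 1.12 and 1.63.

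The next question was whether the switch was shared by genes nearby. Lce1f, Lce1g and Lce1h lie side by side in the epidermal differentiation complex of chromosome 3. The other 7 Lce1 genes in the table, at -104 to 38.2 kb from the start of Lce1g, had at most 8 counts in any library. Lce1e, the neighbour of Lce1f at a gap of 9610 bases, had 0, 0, 2, 0, 0 and 8 counts across the DMSO, TGF-β and TGF-β+2APB libraries, and Lce1i, the neighbour of Lce1h at 12144 bases, had 0, 0, 2, 2, 0 and 0. These genes had too few counts to be tested.

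**Figure D4:**
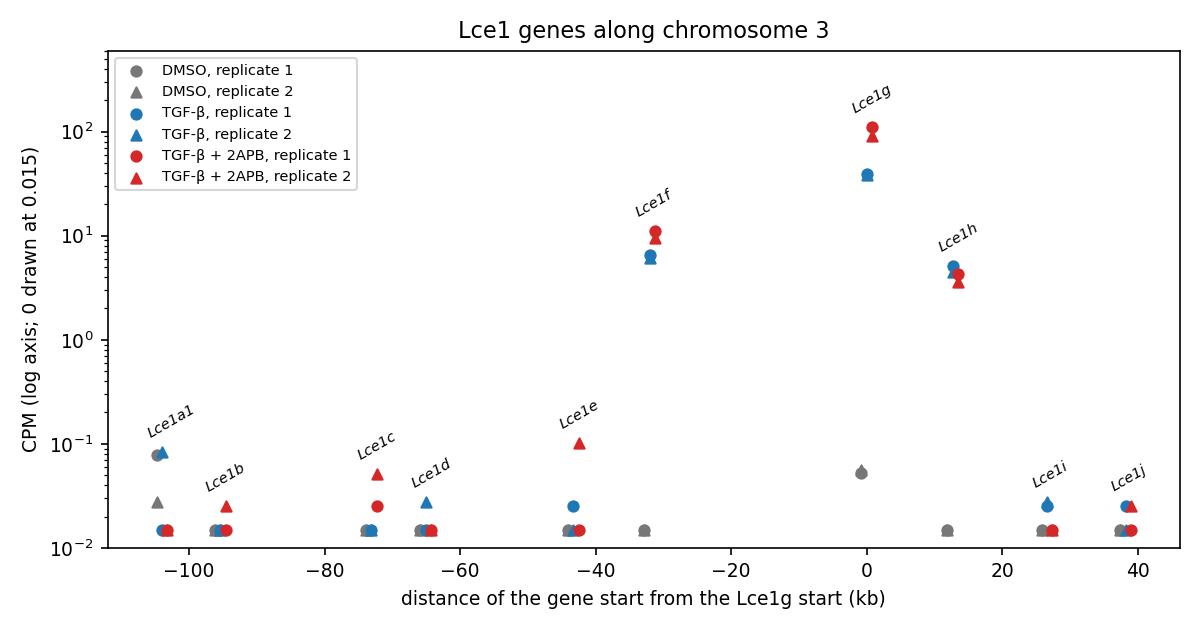
CPM (log axis, 0 drawn at 0.015) of the 10 Lce1 genes of the table in each library, against the distance of their starts from the start of Lce1g in kb; grey is DMSO, blue TGF-β, red TGF-β+2APB, circles replicate 1, triangles replicate 2, with the groups moved slightly sideways. Only Lce1f, Lce1g and Lce1h of these 10 genes rise above 1 CPM, and the other 7 have at most 8 counts in a library.

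Beyond Lce1, the list of 27 other genes of the epidermal differentiation complex held 10 genes with enough counts for a test. Under TGF-β, 6 of them were called higher and 3 lower than with DMSO, where 21.8% of all genes tested were called higher and 19.7% lower. Sprr2k, one of the 6, was itself among the 33 switched-on genes and was left out of the 24 by its ratio, so its values were used in the choice, and without it 5 of 9 were called higher. Ivl, which encodes involucrin, a scaffold of the cornified envelope, rose from 22.7 to 102 CPM (log2 fold change 2.20 ± 0.11, adjusted p = 0.000102 by edgeR). Lor, which encodes loricrin, rose from 0.256 to 1.23 CPM (2.29 ± 0.34, adjusted p = 0.00377 by edgeR). The other 4 that rose were Sprr2k, Prr9, Lelp1 and Sprr1b, none of them above 2 CPM on average. These 4 had 0 to 10 counts in each DMSO library and reached the mean of 20 normalized counts only through the treated libraries. A call of higher was thus nearly fixed for them, and silent genes of the list that stayed low were not tested. With at least 10 counts in every library, 2 genes of the list were called higher. Those that fell were the small proline-rich genes Sprr1a, from 539 to 301 CPM (log2 fold change -0.81 ± 0.25, adjusted p = 0.0496 by edgeR), Sprr2g, from 6.09 to 1.27 CPM, and Sprr2b, from 0.936 to 0.144 CPM. The Sprr2 genes are close copies, and the split of reads between them is uncertain. The median log2 fold change of the 10 genes was 2.25, against -0.01 over all genes tested. It carries the same limit, and nothing is read from it or from the share called higher.

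The nearest gene of the table on each side of the 24 genes was then examined. Of the 48 places, 4 were held by members of the Lce1 group, and the other 44 by as many genes, of which 17 were themselves silent in DMSO and 27 could be tested. With TGF-β against DMSO, 7 of the 27 were called higher (25.9%, against 21.8% of all genes tested), 4 lower (14.8%, against 19.7%) and 16 neither. Their median log2 fold change was -0.01, and that of all genes tested was also -0.01. Among the 39 tested genes that start within 100 kb of a member, 14 were called higher (35.9%) and 2 lower (5.13%). Col7a1, the anchoring fibril collagen, ended 1134 bases from the single exon of Ucn2 on the same strand and rose from 1.69 to 224 CPM (log2 fold change 7.07 ± 0.26, adjusted p = 5.13e-05 by edgeR). With TGF-β+2APB it stood at 298 CPM. The part of reads running on from Col7a1 in the count of Ucn2, 1.28 CPM with TGF-β, was not tested. Pfkfb4, a regulator of glycolysis on the other side of Ucn2, rose from 3.01 to 12.9 CPM (2.13 ± 0.16, adjusted p = 0.000374 by edgeR), so both neighbours of Ucn2 rose.

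Both neighbours of Cldn4 rose as well. Wbscr27, a predicted methyltransferase at a gap of 2481 bases, rose from 15 to 41 CPM (log2 fold change 1.48 ± 0.13, adjusted p = 0.000565 by edgeR), and Abhd11, a mitochondrial hydrolase at 62217 bases, from 17 to 26.7 CPM (0.68 ± 0.08, adjusted p = 0.00187 by edgeR). Tspan6, a tetraspanin next to Srpx2, Mad1l1, a spindle checkpoint gene next to Elfn1, and Rpl34, a ribosomal protein gene next to Lef1, rose by log2 fold changes of 1.11, 0.82 and 0.75. The genes that fell were Slc7a11, the cystine transporter next to Pcdh18 (log2 fold change -1.98 ± 0.52, adjusted p = 0.0277 by edgeR), Hadh, an enzyme of fatty acid oxidation next to Lef1 (-1.13 ± 0.11, adjusted p = 0.000861 by edgeR), Acsf3 next to Cdh15 (-0.82) and Iscu next to Tmem119 (-0.43). The count of 4 was 2 without DMSO replicate 1 or without DMSO replicate 2. Next to Prss46, Prss45 had 0 counts in DMSO and Prss50 was not called (0.304 CPM in DMSO and 0.586 CPM with TGF-β, adjusted p = 0.259 by edgeR). Outside the Lce1 group, Gpr123, Slco5a1, Tarm1 and Elmod1 had no neighbour with enough counts for a test.

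**Figure D5:**
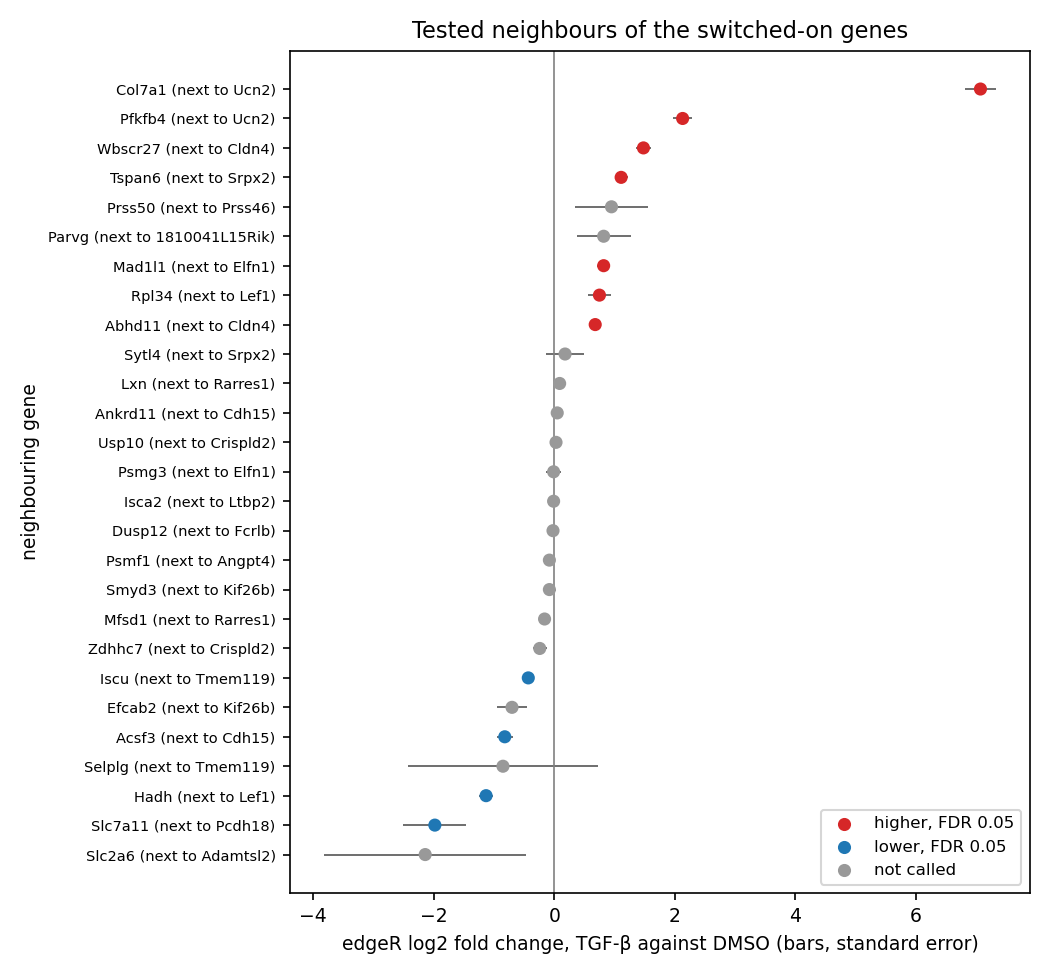
Log2 fold change of TGF-β against DMSO from edgeR, with its standard error as a bar, for the 27 tested neighbours of the 24 genes; red points were called higher, blue points lower and grey points neither at an FDR of 0.05. Col7a1 at 7.07 stands far from the others, the next being Pfkfb4 at 2.13, and most neighbours lie near 0.

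A list of 33 ligands and receptors was measured, of which 23 could be tested. Only some of them are partners of the genes that were silent in DMSO and on with TGF-β. With TGF-β, 9 were called higher and 6 lower (21.8% and 19.7% of all genes tested), with a median log2 fold change of 0.47 against -0.01 over all genes tested. Those that rose were the PDGF ligands Pdgfa (from 7.89 to 58.7 CPM), Pdgfb (87.3 to 307 CPM) and Pdgfc, the Notch ligands Jag1 (175 to 537 CPM) and Dll1, the receptor Notch2, the neurotrophic ligand Gdnf (0.175 to 1.99 CPM) and its receptor Gfra1 (1.39 to 5.76 CPM), and Rspo3, which strengthens Wnt signals. Those that fell were Angpt2, the angiopoietin that opposes TIE2 signalling (from 18.5 to 2.89 CPM, log2 fold change -2.65 ± 0.20, adjusted p = 0.000384 by edgeR), Sort1, which binds neurotensin (49.8 to 16.1 CPM), Notch1, Lgr4, Pdgfd and Il6st. Nts, the neurotensin precursor, counted 36 and 48 in the DMSO libraries, 4 and 2 in the TGF-β libraries and 0 in both TGF-β+2APB libraries, which was too few for a test. Between TGF-β+2APB and TGF-β, 7 of the 23 were called higher and 3 lower, where 6.58% of all genes tested were called higher and 10.9% lower. The list was drawn up with earlier results known, and it also held partners of genes outside the 33 switched-on genes. No PDGF, Notch, GDNF or R-spondin ligand or receptor is among those 33 switched-on genes. The 9 listed genes that rose are all of these families, so their rise does not describe partners of the switched-on genes.

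Well-known TGF-β targets were also measured. The list was drawn up with earlier results of these data known, so it is no independent check of the treatment. Of 16 such genes, all tested, 15 were called higher with TGF-β and 0 lower, against 21.8% and 19.7% of all genes tested, with a median log2 fold change of 1.59. Itga5, a fibronectin receptor subunit, rose from 19.9 to 249 CPM (log2 fold change 3.67 ± 0.11, adjusted p = 3.25e-05 by edgeR), and stood at 471 CPM with TGF-β+2APB. Tgfbi was the one without a call. With TGF-β+2APB against TGF-β, 6 of the 16 were called higher and 1, Fn1, lower, against 6.58% and 10.9% of all genes tested. The lowest DMSO level in this list was that of Snai1, 0.123 CPM, above the limit of 0.1 CPM that chose the 24 genes. Snai1 had 6 and 12 counts in the DMSO libraries and Acta2 20 and 10, so both passed the count minimum through the treated libraries. A list of 18 further protease genes took in serine proteases of mast cell, lymphocyte and testis clusters and, from outside that family, the cathepsin Ctsw. The list held 5 genes that could be tested. Of these 5, Ctsw (0.429 to 99 CPM), Mcpt8 (0.15 to 17 CPM), Gzme (0.516 to 6.6 CPM) and Mcpt2 (0.2 to 0.824 CPM) were called higher with TGF-β. That is 4 of 5, where 21.8% of all genes tested were called higher. The other 13 genes of the list had too few counts for a test, among them Prss42, Prss43 and Prss45, and Prss50 was not called. Mcpt8 and Mcpt2 passed the count minimum only through treated libraries, so nothing is read from the share. With TGF-β+2APB, Mcpt8 and Gzme were called lower, at 1.14 and 0.417 CPM, and Ctsw stood at 96.4 CPM. These were 2 of the 5 tested, where 10.9% of all genes tested were called lower.

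Several of the 24 genes are known as markers of other cell types, and the summed levels of such markers were set beside them. In the list of 10 keratinocyte markers, 8 had an entry and 5 of these, Krt14, Krt5, Krt1, Trp63 and Dsg1a, were below 0.1 CPM in both TGF-β libraries, while the sum of the list was 26.8 to 28.6 CPM in DMSO and 99.5 to 117 CPM with TGF-β, most of it Ivl. Among 10 markers of microglia and macrophages, next to Tmem119, 7 could be tested. Of these, 1 was called higher with TGF-β (Sall1, 71.1 to 89.5 CPM) and 0 lower, where 21.8% and 19.7% of all genes tested were called. The sum of the list was 122 to 126 CPM in DMSO, 131 to 139 CPM with TGF-β and 142 to 182 CPM with TGF-β+2APB. P2ry12 was at 0.0261, 0.277 and 0.304 CPM in the 3 groups, and Aif1 was below 0.1 CPM with TGF-β. Of the 2 mast cell and basophil markers tested, 1 was called higher (Tpsab1, 0.04 to 0.168 CPM) and 1 lower (Kit, 1.37 to 0.155 CPM). Of the 8 with an entry, 5, among them Cpa3 and Ms4a2, were below 0.1 CPM with TGF-β. Tpsab1 had 4 and 2 counts in the DMSO libraries and passed the count minimum only through treated libraries. Its call of higher was thus nearly fixed, and nothing is read from it. The part of such cell types in the levels of the 24 genes was not tested.

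The remaining lists were those of muscle, neurons, T cells, endothelium, fibroblasts and simple epithelium. In this order, 2, 2, 1, 2, 2 and 7 of their genes could be tested. With TGF-β, 21.8% of all genes tested were called higher and 19.7% lower. The muscle markers, beside Cdh15, summed to 1.25 to 1.45 CPM in DMSO and 1.13 to 1.21 CPM with TGF-β, where Ttn rose, Des was not called (1.04 CPM in DMSO and 0.337 CPM with TGF-β, adjusted p = 0.0564 by edgeR) and Myh3, Myh7, Mybpc3 and Tnni3 were below 0.1 CPM. The neuronal markers, beside Elfn1 and Gpr123, summed to 2.49 to 3.01 CPM with TGF-β against 1.07 to 1.17 CPM in DMSO, where Map2 rose (0.204 to 1.8 CPM) and 6 of 9, including Rbfox3 and Snap25, were below 0.1 CPM. The T cell and cytotoxic cell markers summed to 0.287 to 0.306 CPM in DMSO and 1.02 to 1.06 CPM with TGF-β, most of it Zap70. Zap70, the 1 gene tested, rose from 0.093 to 0.772 CPM, and 8 of 10 were below 0.1 CPM with TGF-β. In the DMSO libraries Ttn had 10 and 22 counts, Map2 10 and 20, and Zap70 10 and 4. These 3 genes passed the count minimum through the treated libraries, which favours a call of higher, so nothing is read from their calls. The endothelial markers, beside Angpt4, summed to 9.98 to 10.4 CPM in DMSO and 3.42 to 4.48 CPM with TGF-β, with Egfl7 called lower, and to 4.81 to 7.06 CPM with TGF-β+2APB. Vwf, the von Willebrand factor of endothelium and platelets, stood at 0.407 CPM with TGF-β and was called higher with TGF-β+2APB, at 4 CPM (log2 fold change 3.32 ± 0.84, adjusted p = 0.048 by edgeR). The fibroblast markers summed to 2.03 to 2.23 CPM in DMSO and 22.2 to 24.4 CPM with TGF-β, most of it Col1a1, which rose from 0.84 to 21.9 CPM, while 7 of 9, Col1a2, Col3a1, Dcn, Fap, Postn, Pdpn and Thy1, were below 0.1 CPM. The simple epithelial markers had 2 genes higher (Krt8 and Krt18) and 4 lower (Cdh1, Epcam, Ocln and Tjp1) with TGF-β.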

How the data were processed

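RNA of NMuMG cells in 3 groups of 2 replicates was sequenced by the authors as single-end reads of 50 bases. The authors checked the reads with FastQC 0.11.2, aligned them with TopHat 2.0.13 and counted them per gene with featureCounts, and the deposited values are raw counts, not normalized. The submitters' processing notes name mm10 and DESeq2 1.6.1. The methods text names hg19, while the symbols are those of mouse genes. The gene annotation and strand setting are not given in the sources used here. Of the 18512 entries, 25 had names changed into dates and are not named. Columns with no sample numbered 0.

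CPM was computed from column sums (71840570 to 79473182 counts per library). For tests, edgeR 4.0.16 with TMM scaling was fitted to the 3 groups in 1 quasi-likelihood model over genes whose mean normalized count reached 20, and genes were called at an FDR (Benjamini-Hochberg, over all genes tested) of 0.05 or less. DESeq2 1.42.0 was an alternative. Whether the replicates came from separate cultures is known only from the study's wording, so p-values measure the spread between these samples. Lower bounds used a floor of 3 counts per library, and fold intervals were exact binomial 95% intervals. Symbols were matched to GENCODE vM21 on GRCm38 (18271 of 18512, 98.7%), and promoters to RefSeq on GRCm38.p6 with chromosome and symbol in agreement.

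The members, the lists (epidermal differentiation complex, ligand and receptor partners, TGF-β targets, serine protease clusters with the cathepsin Ctsw, and cell type markers) and the tests were chosen with earlier results of these data known. By the rule for naming, genes named are all members, those nearest each limit, called neighbours and called list genes (of the TGF-β targets, only a few). All others, such as further switched-on genes outside the limits, neighbours and list genes without a call, and single markers, were picked after their values were seen. 1 gene that the rule would name is counted but not reported by name here.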

Additional observations from a re-analysis of the deposited data

How the results depend on the processing

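The number of switched-on genes followed the limits of the rule. It was 15 with a DMSO limit of 0.05 CPM and 48 with 0.2 CPM, 40 with a TGF-β minimum of 0.5 CPM and 15 with 2 CPM, and 24 to 39 when each library was left out in turn. The highest of these, 39, came without TGF-β replicate 1, and all 24 genes were kept in each of these 6 settings, whose construction drops a limit. With CPM from TMM effective sizes the same 24 genes were kept. The number of members called higher with TGF-β+2APB than with TGF-β, 9 by edgeR, was 0 under a minimum of 10 counts in every library, which removes every gene that is silent in DMSO, 2 at an FDR of 0.01, and 3 to 9 with single libraries left out. Called neighbours were 14 higher (35.9%) and 2 lower (5.13%) among the 39 tested genes that start within 100 kb of a member, where 21.8% and 19.7% of all genes tested were called, 2 lower at an FDR of 0.01, and 2 to 5 lower with single libraries left out. Called genes of the epidermal differentiation complex were 2 under the minimum of 10 counts.

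Replicate numbers mark no known pairing (correlations of the replicate differences were 0.18, -0.44 and -0.21 between groups over 13353 genes). With the replicate block, 6 members were called higher and 0 lower, and called neighbours stayed at 7 higher and 4 lower. With the TGF-β+2APB numbers crossed, chosen after the data were seen, 8 members were called higher and 0 lower. Other counts stayed within 1.5 times.

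Chosen after the data were seen, TMM or RLE scaling and the omission of each treated library left the log2 ratio of TGF-β+2APB to TGF-β between 0.59 and 1.56 in the 14 genes above 1.5 times. In the other 10 it lay between -0.53 and 0.4, and it changed sign in 7: Ltbp2, Adamtsl2, Rarres1, Tmem119, Elfn1, Cdh15 and Srpx2. With 2 replicates per group, values near 1 CPM, such as those of Lef1 and Elfn1, limit what can be told.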
